A study of Mus musculus with 12 samples.

Results

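The core pluripotency regulators are 9 protein-coding genes, Pou5f1, Sox2, Nanog, Sall4, Utf1, Zfp281, Dppa2, Dppa4 and Dppa5a, taken by name from a count table of 55335 genes. Each matched 1 row, and all 9 are among the 16468 genes that passed the filter on low counts. RNA was sequenced in 12 libraries of a mouse embryonic stem (ES) cell line named mESC, 3 at each of days 0, 2, 4 and 6. The labels describe 1 culture for all of them: a KnockOut Serum Replacement medium with LIF, the cytokine used to keep mouse ES cells undifferentiated, and gelatin-coated plates that carried feeders, irradiated embryonic fibroblasts (MEFs) of the mouse. No genotype, agent or change of medium is given for any day, so the days are the only labelled difference, and what was done to the cells between them is not stated. The labels also leave it unsaid if the replicates of a day came from different cultures, and p-values here therefore measure only how far these libraries spread, possibly for technical reasons. A library held between 6945900 and 13266962 counts.

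Pluripotent cells keep their identity through a small set of transcription factors that bind each other's genes. OCT4 (the product of Pou5f1) and SOX2 bind DNA side by side on composite elements and activate Nanog, Utf1 and their own genes, among many others. SALL4 and ZFP281 are zinc-finger proteins of the same network, and both are known to bind the NuRD complex, the histone deacetylase and remodelling complex that the series title names. DPPA2 and DPPA4 are related SAP-domain proteins that act as a pair on chromatin and are known activators of genes of the two-cell embryo, while Dppa5a encodes a small RNA-binding protein that is abundant in ES cells. Outside the early embryo several of these genes stay on in germ cells, and Sox2 stays on in neural progenitors.

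Promoter sequences from RefSeq (GRCm38.p6) covered 5 of the 9 genes: Pou5f1, Sox2, Nanog, Utf1 and Zfp281. Those of the OCT4, SOX2 and NANOG genes are shown because the 3 factors act on each other's genes and, as described below, fell together but to different depths. Each run reads 5′ to 3′ on the plus strand, ends at or before the annotated start of the gene, and has in capitals the matches to POU and SOX motifs, searched on both strands.
Nanog, chr6:122707239-122707488: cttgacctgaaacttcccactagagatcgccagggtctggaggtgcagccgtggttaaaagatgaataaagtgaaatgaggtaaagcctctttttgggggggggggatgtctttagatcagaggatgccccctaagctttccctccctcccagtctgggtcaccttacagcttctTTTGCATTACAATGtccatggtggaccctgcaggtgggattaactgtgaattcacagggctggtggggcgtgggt
Sox2, chr3:34649745-34649994: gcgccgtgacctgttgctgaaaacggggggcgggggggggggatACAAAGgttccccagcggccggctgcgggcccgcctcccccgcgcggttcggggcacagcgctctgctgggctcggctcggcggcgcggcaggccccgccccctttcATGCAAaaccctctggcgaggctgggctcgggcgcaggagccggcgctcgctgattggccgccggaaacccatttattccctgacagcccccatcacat
Pou5f1, chr17:35505782-35506017: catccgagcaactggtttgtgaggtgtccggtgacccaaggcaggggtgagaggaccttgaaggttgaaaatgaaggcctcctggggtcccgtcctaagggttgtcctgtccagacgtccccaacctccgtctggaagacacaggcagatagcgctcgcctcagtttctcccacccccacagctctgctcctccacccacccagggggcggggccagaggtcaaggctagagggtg
The Nanog window holds a composite of a SOX and a POU motif, TTTGCATTACAATG, at chr6:122707414-122707427. From a second RefSeq start of Nanog, whose window is not shown, it lies 138 to 151 bases away. From the RefSeq start of the window shown it lies 62 to 75 bases away. It was found as a match, on the opposite strand, to the SOX-OCT composite motif, with at most 1 mismatch allowed. It contains the shorter motifs ATGCAA and CATTGT. Of the 32851 RefSeq promoters, taken as 250 bases before the start, 0.755% held the composite, 9.45% held ATGCAA and 10.7% held CATTGT. In the Sox2 window, ATGCAA and CTTTGT (as ACAAAG on the plus strand) lay apart. They lay 94 to 99 and 201 to 206 bases before the RefSeq start. That window ends at 34649994, well before the annotated start of Sox2 at 34650405, so both motifs lie farther from the annotated start. CTTTGT was present in 16.5% of promoters. The full octamer ATGCAAAT, present in 1.60%, matched in none of the 5 genes' windows, nor did TATAAA (12.4%), and the Pou5f1 sequence shown held none of the POU or SOX motifs. GGGCGG, present in 32.7% of promoters, matched in Pou5f1, Sox2, Utf1 and Zfp281 but not in Nanog. CCAAT, present in 33.8%, matched in Zfp281 and Sox2, and for Pou5f1 past the end of the sequence shown. A second RefSeq start of Pou5f1 lies inside the gene, and its window, not shown, held CATTGT and CCAAT. The Nanog window shown had 52.0% G and C and a CpG ratio (observed to expected) of 0.182, and the second Nanog window 57.6% and 0.104. The values were 72% and 0.833 for Sox2, 61.6% and 0.638 for Utf1, 69.6% and 0.7001 for Zfp281, and 62% and 0.334 for Pou5f1. Medians over all promoters were 52.4% and 0.373. Only the 250 bases before each start were searched, so motifs farther away, as in distant enhancers, could not be found. Whether these motifs bear on the depth of the falls was not tested.

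All 9 genes were lower at day 6 than at day 0, but they did not fall alike. Utf1, Sox2 and Nanog were at 21.4%, 25.3% and 30.1% of their starting level by day 2, Pou5f1 and Dppa5a fell mostly before day 4, Zfp281 and Sall4 declined slowly, and Dppa2 rose before it fell. Levels are in counts-per-million units (CPM) after scaling between libraries, and a gene is called changed at an adjusted p under 0.05 in edgeR's quasi-likelihood test, adjusted over all 16468 genes. At day 2 against day 0, 7 of the 9 fell, 1 rose and 1 did not pass. Of all genes tested, 68.1% changed in that comparison, 34.9% up and 33.2% down (5743 and 5473 genes, or 7053 and 4412 with scaling by library size alone). At day 4 against day 0, 8 fell and 1 did not pass (73.6% of all genes changed, 37.5% up and 36.1% down), and at day 6 against day 0 all 9 fell (76.9% changed, 39.4% up and 37.5% down). At least 2-fold falls numbered 4, 5 and 7 of 9 at days 2, 4 and 6, where 10.3%, 13.1% and 13.8% of all genes fell that far. The median log2 change of the 9 genes was -0.79, -1.85 and -2.11 at days 2, 4 and 6, beside 0.02, 0.01 and 0.02 over all genes tested. These 3 comparisons share the day 0 libraries. Between successive days, all 9 fell from day 2 to day 4 (50.1% of all genes changed, 25.3% up and 24.8% down), and 7 fell and 2 did not pass from day 4 to day 6 (42.9% changed, 23.6% up and 19.3% down). From day 2 to day 6 all 9 fell (63.6% changed, 32.4% up and 31.2% down). Falls of at least 2-fold numbered 3 from day 2 to day 4, 2 from day 4 to day 6 and 7 from day 2 to day 6, against 3.39%, 2.54% and 7.03% of all genes. Summed over the 9 genes, CPM was 4024 ± 66.7 at day 0, 1995 ± 19.3 at day 2, 1123 ± 19.4 at day 4 and 817 ± 11.9 at day 6 (SD, n = 3). In bulk RNA, fewer cells that express a gene and less RNA per cell cannot be told apart, and this holds for every value below.

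**Figure D1:**
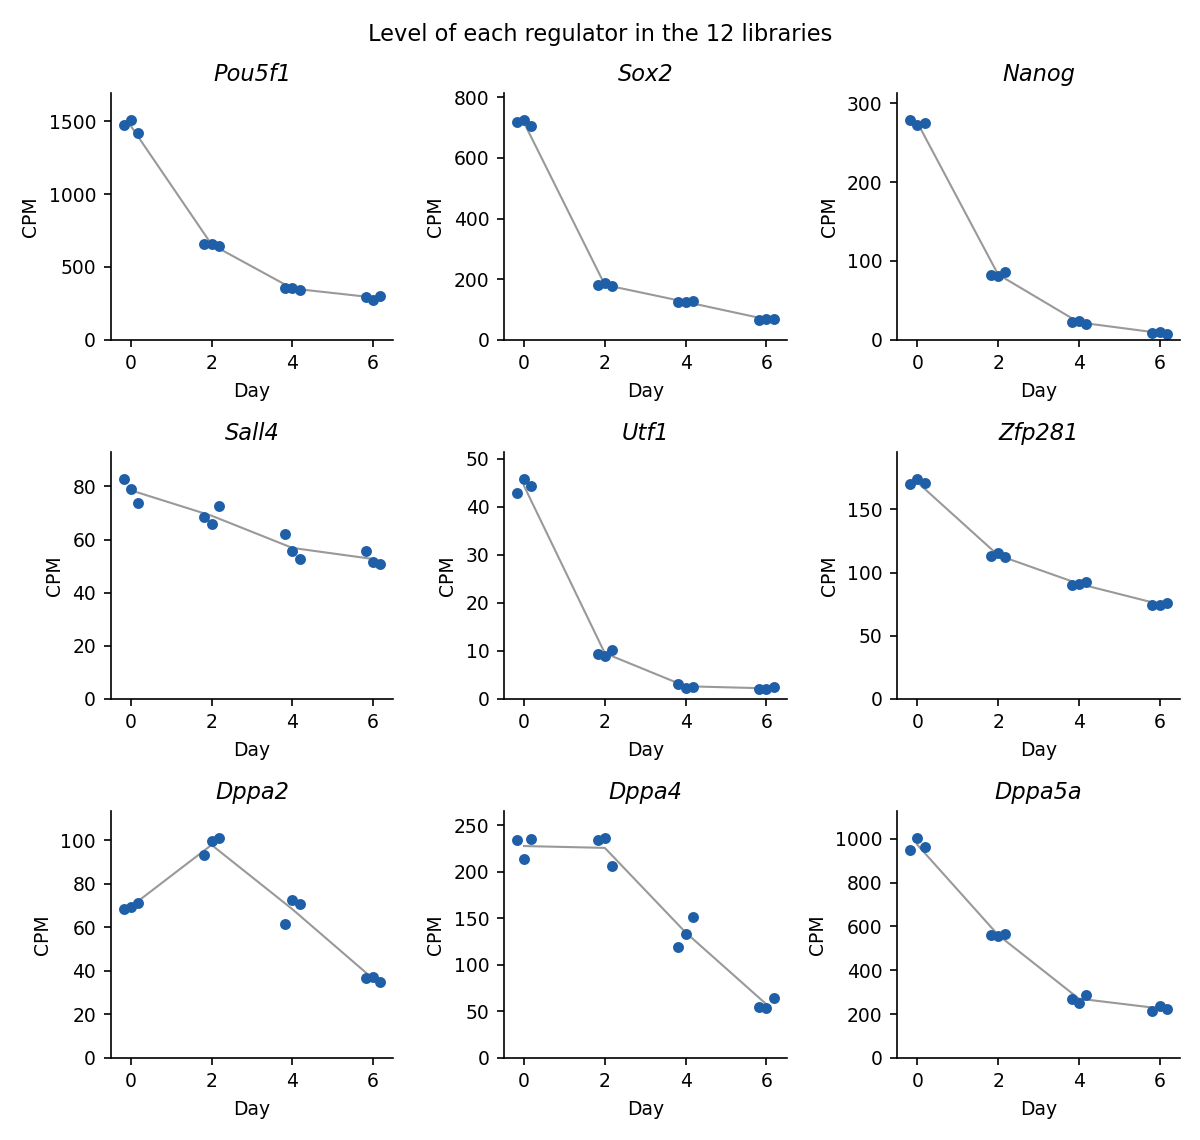
Level of each of the 9 genes in the 12 libraries, in scaled CPM (vertical axis from 0) against the day. Points are libraries, spread sideways by replicate, and the grey line joins the means of the 3 libraries of a day. For Pou5f1, Sox2, Nanog, Sall4, Utf1, Zfp281 and Dppa5a the day 2 libraries lie below the day 0 libraries, while those of Dppa2 lie above them.

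Pou5f1 (ENSMUSG00000024406, chromosome 17, 35506018 to 35510772, GRCm38) encodes OCT4, the POU-domain factor without which pluripotent cells cannot be maintained. Its 3 libraries had 1473, 1509 and 1422 CPM at day 0, 658, 660.2 and 645 at day 2, 359, 358 and 340.1 at day 4, and 296, 275 and 302 at day 6. The libraries of different days did not overlap. The level fell 2.24-fold by day 2 (log2 -1.17 ± 0.04 SE, adjusted p = 2.42e-24), a further 1.86-fold by day 4 (adjusted p = 1.21e-19) and 1.21-fold by day 6 (log2 -0.28 ± 0.05, adjusted p = 4.56e-06). At day 6 it was still 19.8% of its day 0 level. An antisense gene, Gm19553, shares 317 bases with its exons but had 57 counts over all 12 libraries. Whether reads were counted by strand is not given, so reads of the 2 genes may not have been told apart.

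Sox2 (ENSMUSG00000074637, chromosome 3, 34650405 to 34652461), a gene with 1 exon that encodes the partner of OCT4, had 719.6, 726 and 704 CPM at day 0. It had 181, 186 and 176 CPM at day 2, 125, 124 and 126 at day 4, and 64.4, 70.0 and 68.6 at day 6. All 4 days were separate, with the steepest step first. Sox2 fell 3.95-fold by day 2 (log2 -1.98 ± 0.04, adjusted p = 4.44e-32), 1.45-fold from day 2 to day 4 (log2 -0.54 ± 0.05, adjusted p = 9.91e-13) and 1.85-fold from day 4 to day 6 (log2 -0.89 ± 0.05, adjusted p = 1.25e-17). Its last step was thus larger than its middle one, while for Pou5f1 each step was smaller than the one before. Changes of the 2 genes were tested against each other only from day 0, below. Sox2 lies within the noncoding gene Sox2ot, which shares no exon base with it and had 111 counts over the 12 libraries.

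Nanog (ENSMUSG00000012396, chromosome 6, 122707489 to 122714633), which encodes the homeodomain factor that stabilises naive self-renewal, had the deepest fall of the 9 by day 6. Its libraries had 279, 273 and 275 CPM at day 0, 82.1, 80.5 and 86.2 at day 2, 23.1, 23.2 and 20.02 at day 4, and 8.30, 10.2 and 7.57 at day 6. It fell at each step, 3.33-fold (log2 -1.73 ± 0.05, adjusted p = 2.02e-28), 3.71-fold (log2 -1.89 ± 0.07, adjusted p = 9.81e-25) and 2.59-fold (log2 -1.37 ± 0.10, adjusted p = 9.58e-15). At day 6 it was at 3.15% of its day 0 level, from 111, 94 and 72 counts per library, and the fitted fall over the whole course was 31.9-fold (log2 -5.00 ± 0.07, adjusted p = 4.93e-39). The processed pseudogenes Nanog-ps1 and Nanog-ps2 had 4 and 0 counts in all.

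Utf1 (ENSMUSG00000047751, chromosome 7, 139943789 to 139945112), a chromatin-bound factor that is a textbook target of OCT4 and SOX2, fell fastest. It had 42.8, 45.8 and 44.4 CPM at day 0, 9.40, 8.84 and 10.3 at day 2, 3.001, 2.31 and 2.56 at day 4, and 2.09, 2.05 and 2.42 at day 6. The fall was 4.67-fold by day 2 (log2 -2.22 ± 0.09, adjusted p = 2.09e-23) and 3.60-fold more by day 4 (log2 -1.85 ± 0.16, adjusted p = 8.47e-13). Days 4 and 6 overlapped, and the step between them did not pass the test (log2 -0.27 ± 0.22, adjusted p = 0.379). Those libraries held 18 to 31 Utf1 counts each, which limits what could be seen there.

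**Figure D2:**
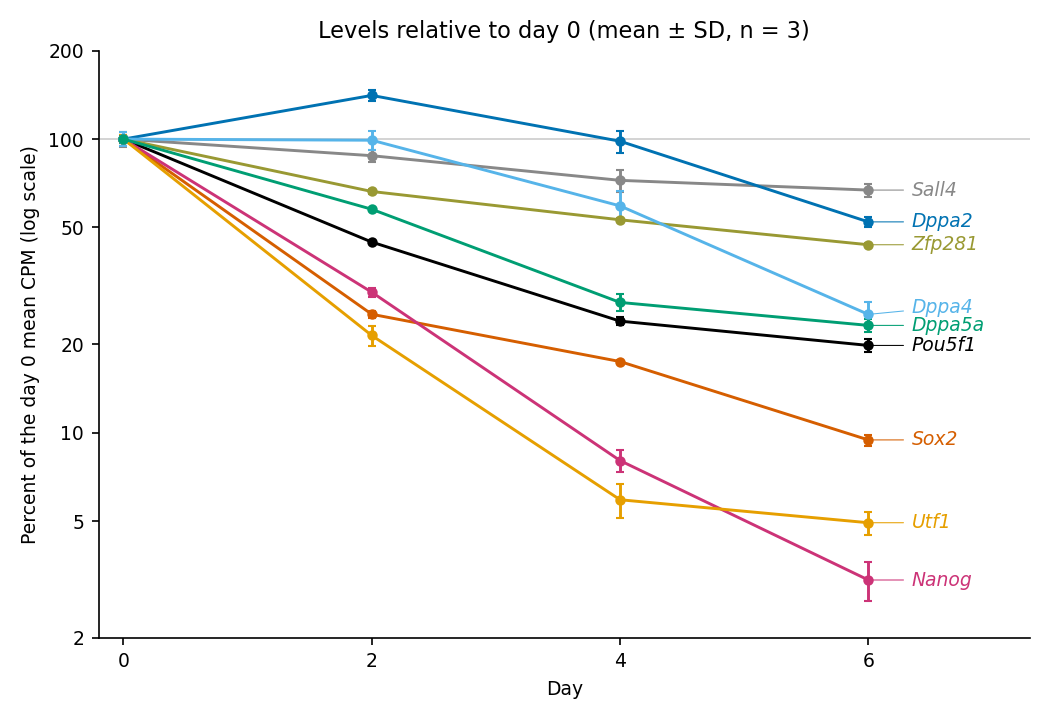
Mean CPM of each gene at each day as a percentage of its own day 0 mean, on a log axis, with bars for the SD of the 3 libraries. Nanog and Utf1 reach 3.15% and 4.93% at day 6, Sox2 9.45%, Pou5f1, Dppa5a and Dppa4 19.8% to 25.3%, and Zfp281, Dppa2 and Sall4 43.7% to 67.0%. The Dppa2 line goes up to 141% at day 2.

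Because the 3 best-known factors act as partners, their ratio within each library is of interest, and it does not depend on the scaling between libraries. Per kilobase of exon, the Sox2 level was 0.534, 0.526 and 0.541 of that of Pou5f1 in the day 0 libraries and 0.301, 0.309 and 0.299 at day 2. It was 0.382, 0.378 and 0.406 at day 4 and 0.238, 0.278 and 0.249 at day 6. The ratio therefore dropped, rose in part and dropped again, with no overlap between days. The ratio of Nanog to Pou5f1 went only down, from 0.188 ± 0.00669 at day 0 to 0.127 ± 0.00617, 0.0630 ± 0.00344 and 0.0301 ± 0.00619 at days 2, 4 and 6 (SD, n = 3). Nanog to Sox2 went the other way at first, from 0.353 ± 0.00748 to 0.420 ± 0.0266 at day 2, then to 0.162 ± 0.0149 and 0.118 ± 0.0160, and its day 4 and day 6 libraries did not overlap.

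**Figure D3:**
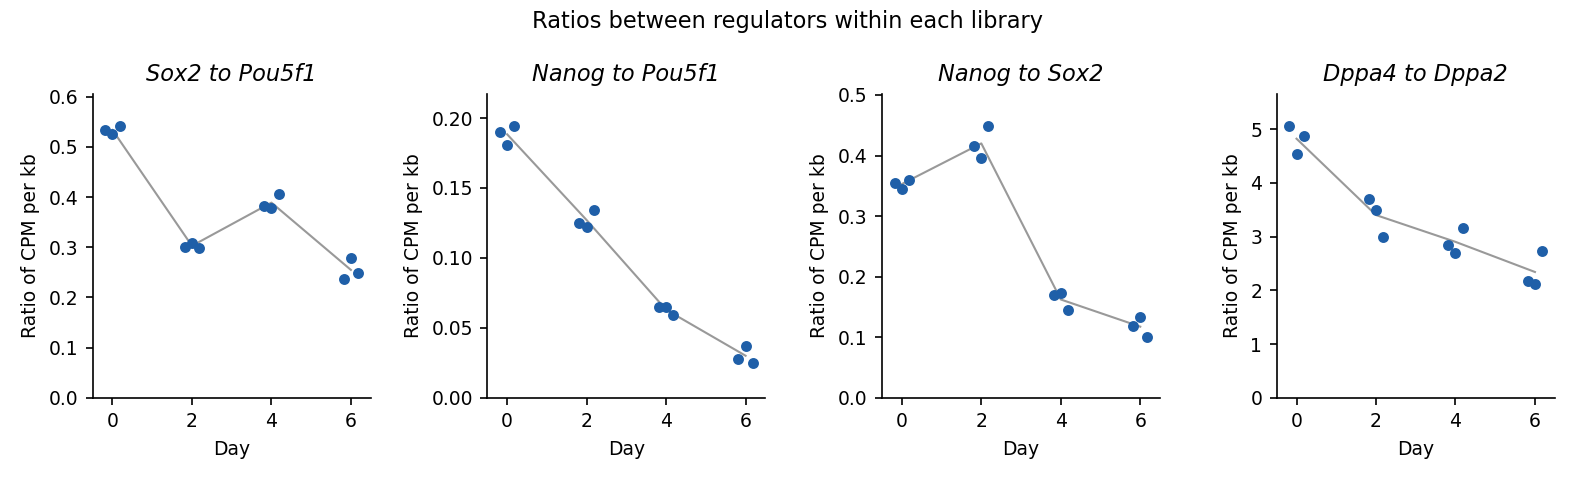
Ratios between pairs of the 9 genes in each library, each gene's CPM first divided by its exon length in kilobases. Points are the 3 libraries of a day and grey lines join their means. Sox2 to Pou5f1 has a dip at day 2 and a partial return at day 4, and Dppa4 to Dppa2 goes from 4.82 at day 0 to 2.34 at day 6.

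Changes of the other 8 genes were tested against that of Pou5f1 in limma, on log2 CPM minus the log2 CPM of Pou5f1 in the same library. Relative to Pou5f1, 90.7%, 96.2% and 96.6% of all 16467 other genes changed at days 2, 4 and 6, so a difference from Pou5f1 is in itself common. All 8 differed from it at each day, 3 of them falling more and 5 falling less or rising. At day 2 the difference in log2 change was -0.82 ± 0.06 for Sox2 (SE, adjusted p = 3.36e-15), with -0.57 ± 0.09 for Nanog (adjusted p = 1.10e-06) and -1.04 ± 0.15 for Utf1 (adjusted p = 2.64e-08). At day 4 the value for Sox2 had come back to -0.46 ± 0.06 (adjusted p = 1.10e-08), while Nanog had reached -1.57 ± 0.09 and Utf1 -1.93 ± 0.15. At day 6 the values were -1.07 ± 0.06 for Sox2, -2.63 ± 0.09 for Nanog and -1.89 ± 0.15 for Utf1. Dppa5a kept closest to Pou5f1, at 0.37 ± 0.07, 0.21 ± 0.07 and 0.23 ± 0.07 at the 3 days (adjusted p = 3.23e-06, 0.00344 and 0.00171). Dppa2 gained most on Pou5f1 at days 2 and 4 (1.66 ± 0.08 and 2.03 ± 0.08, adjusted p = 5.40e-22 and 1.48e-25), while Dppa4 went from 1.15 ± 0.08 and 1.30 ± 0.08 back to 0.35 ± 0.08 at day 6 (adjusted p = 0.000359). For Dppa5a, without replicate 3 of day 4, the day 4 value was 0.14 and no longer passed (adjusted p = 0.0550).

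**Figure D4:**
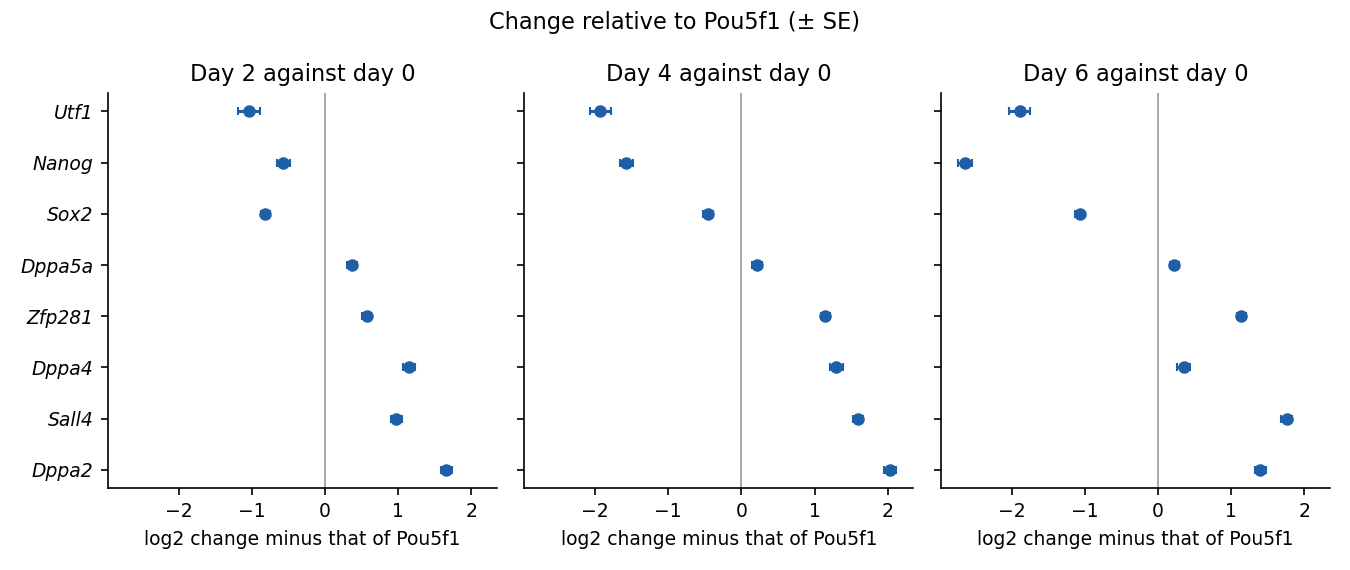
Change of 8 genes since day 0 minus the change of Pou5f1, in log2 units with SE bars, at days 2, 4 and 6. Utf1, Nanog and Sox2 lie left of 0 (they fell more than Pou5f1) and the other 5 lie right of it. Nanog moves from -0.57 to -2.63 and Dppa4 from 1.15 back to 0.35 over the days.

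Sall4 (ENSMUSG00000027547, chromosome 2, 168748332 to 168767943) encodes a zinc-finger transcription factor of ES cells and germ cells. It had 82.8, 78.9 and 73.9 CPM at day 0, 68.5, 65.8 and 72.6 at day 2, 62.2, 55.6 and 52.7 at day 4, and 55.8, 51.5 and 50.7 at day 6. The fall to day 6 was 1.49-fold (log2 -0.57 ± 0.06, adjusted p = 1.46e-10), the smallest of the 9. By day 2 it was 1.14-fold (log2 -0.19 ± 0.06, adjusted p = 0.00508), a call that was lost without replicate 1 of day 0 (adjusted p = 0.0550) and with scaling by library size alone (adjusted p = 0.409). Days 4 and 6 overlapped (log2 -0.11 ± 0.06, adjusted p = 0.163). Gm14261, on the opposite strand, shares 526 bases with its exons and had 21 counts in all.

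Zfp281 (ENSMUSG00000041483, chromosome 1, 136624901 to 136630053), which encodes a zinc-finger factor known to restrain Nanog through NuRD and to take part in leaving the naive state, went down in small steps. It had 170.0, 174 and 171 CPM at day 0, 113, 116 and 112 at day 2, 89.8, 91.0 and 92.6 at day 4, and 74.6, 74.2 and 76.0 at day 6. The days were fully separate although the last steps were small. It changed by -0.59 ± 0.04 (adjusted p = 4.31e-15), -0.32 ± 0.05 (adjusted p = 1.90e-07) and -0.28 ± 0.05 (adjusted p = 8.77e-06) log2 units at the successive steps. Relative to Pou5f1 its level gained 1.14 ± 0.06 log2 units by day 6 and that of Sall4 1.76 ± 0.07 (adjusted p = 3.13e-20 and 2.35e-24).

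The genes of NuRD, with which both proteins work, included some that rose and some that fell. Of 15 subunit genes, 8 rose, 5 fell and 2 did not pass at day 6 against day 0 (median log2 0.14, all genes 39.4% up and 37.5% down). At day 2, 5 rose, 5 fell and 5 did not pass, near the 34.9% up and 33.2% down of all genes. Those lower at day 6, named after their values were seen, were Chd5, Hdac1, Rbbp4, Gatad2a and Mta3, with log2 changes of -2.70, -1.31, -0.69, -0.44 and -0.11. The most abundant, Chd4, the ATPase, was at 845 ± 14.0 CPM at day 0 and 929.5 ± 23.8 at day 6 (log2 0.14 ± 0.05, adjusted p = 0.00584). Rbbp7, a histone-binding subunit, went up from 308 ± 9.60 CPM to 993 ± 45.1 (log2 1.69 ± 0.05, adjusted p = 2.33e-29), and Hdac2, a deacetylase, from 379.9 ± 14.7 to 464 ± 8.86 CPM (log2 0.29 ± 0.07, adjusted p = 0.000774). Summed over the list, NuRD genes had 3377 to 3441 CPM at day 0 and 4123 to 4209 at day 6.

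Dppa2 (ENSMUSG00000072419, chromosome 16, 48303908 to 48319723) and Dppa4 (ENSMUSG00000058550, chromosome 16, 48283733 to 48294237) are neighbours on the plus strand, 9671 bases apart. Dppa2 was the 1 gene of the 9 that rose. It had 68.3, 69.2 and 71.0 CPM at day 0 and 93.1, 99.5 and 101 at day 2, a 1.41-fold rise with no overlap (log2 0.49 ± 0.06, adjusted p = 6.55e-10). At day 4 it had 61.8, 72.7 and 70.6 CPM, which overlapped day 0 (log2 -0.03 ± 0.06, adjusted p = 0.706), and at day 6 it had 36.7, 37.4 and 34.8, 1.91-fold below day 0 (log2 -0.93 ± 0.06, adjusted p = 3.99e-16).

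Dppa4 did not follow that rise. Its libraries had 234, 213 and 235 CPM at day 0 and 234, 236 and 206 at day 2, which overlapped (log2 -0.01 ± 0.09, adjusted p = 0.913). It then fell to 119, 133 and 152 CPM at day 4 (log2 -0.75 ± 0.09 against day 2, adjusted p = 2.10e-05) and to 54.5, 53.7 and 64.4 at day 6 (log2 -1.22 ± 0.10 against day 4, adjusted p = 1.26e-06). Over the whole course it fell 3.97-fold, beside 1.91-fold for Dppa2. Per kilobase, the ratio of Dppa4 to Dppa2 was 5.06, 4.54 and 4.87 in the day 0 libraries. It was 3.70, 3.50 and 3.002 at day 2, 2.85, 2.69 and 3.17 at day 4, and 2.18, 2.11 and 2.73 at day 6. The ratio was lower in all libraries of later days than in those of day 0, but neighbouring days from day 2 on overlapped.

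Genes of the two-cell embryo that DPPA2 and DPPA4 are known to activate rose between day 0 and day 2, when Dppa2 rose and Dppa4 did not pass the test. From day 2 to day 4 both Dppa2 and Dppa4 fell, as did 24.8% of all genes, while 25.3% rose. Of the 17 two-cell genes with a test, 8 gave no call, 7 were lower and 2 higher (median log2 -0.05). The 2 higher ones were Zscan4d (log2 0.42) and Zscan4e (log2 0.23), the latter named after its values were seen. From day 4 to day 6 both fell again, and so did most of the list. In all, 17 of 17 rose by day 2 (median log2 3.25, all genes 34.9% up). From day 4 to day 6, 16 fell and 1 did not pass (median -1.68, all genes 19.3% down). At day 6, 15 were still above day 0 (median 1.44, all genes 39.4% up), Zfp352 and Tdpoz4 not passing there. The 1 without a call from day 4 to day 6 was Duxf3. At day 6 Dppa2 and Dppa4 were themselves below day 0 (log2 -0.93 and -1.99). Whether the changes of Dppa2 or Dppa4 had a part in those of the list was not tested. Zscan4d had 5.10 ± 0.306 CPM at day 0, 79.1 ± 5.03 at day 2, 106 ± 1.37 at day 4 and 26.7 ± 0.208 at day 6. For Zscan4a the means were 5.27 ± 0.667, 72.6 ± 3.19, 65.4 ± 2.98 and 20.3 ± 1.19 CPM, and for the ubiquitin protease gene Usp17le 4.20 ± 0.859, 50.6 ± 0.892, 40.5 ± 2.38 and 17.3 ± 0.958 CPM. These families have near-identical copies, so the split of reads between members is uncertain. Over the list the sum went from 32.8 to 35.6 CPM at day 0 to 430.4 to 447 at day 2, 424 to 447 at day 4 and 128 to 141 at day 6.

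Dppa5a (ENSMUSG00000060461, chromosome 9, 78367052 to 78368177) had the highest level of the 9 per kilobase at every day. It had 950.4, 1004 and 964 CPM at day 0, 562, 557 and 564 at day 2, 269.9, 252 and 289 at day 4, and 215, 238 and 224 at day 6. Its fall was 1.73-fold by day 2 (log2 -0.79 ± 0.05, adjusted p = 3.01e-18), 2.08-fold from day 2 to day 4 (log2 -1.06 ± 0.05, adjusted p = 5.06e-21) and 1.20-fold at the end (log2 -0.26 ± 0.05, adjusted p = 3.79e-05). The days did not overlap. The pseudogenes Dppa5b and Dppa5c had 6 and 53 counts in all, and the share of their reads counted to Dppa5a, or the reverse, is uncertain.

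In CPM per kilobase of exon, the order at day 0 was Dppa5a (1571 ± 45.0), Pou5f1 (653 ± 19.5), Sox2 (348 ± 5.43), Dppa4 (137 ± 7.38), Nanog (123 ± 1.399), Utf1 (36.2 ± 1.22), Zfp281 (34.8 ± 0.463), Dppa2 (28.4 ± 0.570) and Sall4 (14.2 ± 0.808). Utf1 and Zfp281 lay within about 1 SD of each other there. At day 6 it was Dppa5a (364 ± 18.8), Pou5f1 (129 ± 6.30), Dppa4 (34.6 ± 3.60), Sox2 (32.9 ± 1.41), Zfp281 (15.2 ± 0.190), Dppa2 (14.8 ± 0.550), Sall4 (9.51 ± 0.499), Nanog (3.87 ± 0.594) and Utf1 (1.78 ± 0.163). Dppa4 and Sox2, and Zfp281 and Dppa2, were then within their spread of each other. Nanog went from above Zfp281, Dppa2 and Sall4 to below all 3, and Pou5f1 and Dppa5a stayed first throughout. Exon length is the union over annotated transcripts, so these levels compare genes only roughly.

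Other genes of pluripotent cells fell too, with exceptions. Of 24 markers outside the 9, 21 fell, 2 rose and 1 did not pass at day 2 (median log2 -1.54, all genes 33.2% down and 34.9% up). At day 6 against day 0, 22 fell, 1 rose and 1 did not pass (median -2.37, all genes 37.5% down and 39.4% up). The exceptions, named after their values were seen, were Lin28a, an RNA-binding protein gene, which rose by 1.21 at day 2 and 1.77 at day 6 on the log2 scale, and Lefty1, an inhibitor of Nodal, which rose by 1.24 at day 2, with Spp1 not passing at day 2 and Dppa3 not at day 6. From day 2 to day 6, 18 of the 24 fell, 4 rose and 2 did not pass (all genes 31.2% down and 32.4% up). The 4, also named after their values were seen, were Lin28a and, after falls by day 2, Tdgf1, Mycn and Dppa3. Tdgf1 had 528 ± 22.4 CPM at day 0, 12.2 ± 0.583 at day 2 and 50.4 ± 2.18 at day 6. Zfp42 (REX1), a zinc-finger gene of naive cells, fell from 914 ± 19.3 to 113 ± 5.72 CPM over the course (log2 -3.02 ± 0.05, adjusted p = 5.89e-37). L1td1, an RNA-binding protein gene derived from a transposon, went from 622 ± 25.2 to 297 ± 25.2, 341 ± 11.2 and 249.5 ± 6.38 CPM at days 2, 4 and 6. Spp1 (osteopontin) was at 398 ± 24.0 and 419.5 ± 37.3 CPM at days 0 and 2 (log2 0.08 ± 0.06, adjusted p = 0.241) and fell to 92.7 ± 4.92 by day 6 (log2 -2.10 ± 0.06, adjusted p = 1.29e-19 against day 0). Of the 22 genes for proteins that bind OCT4, SOX2 or NANOG, 16 fell and 6 rose at day 6 against day 0 (median -0.49). All genes were 37.5% down and 39.4% up there. From day 4 to day 6, 8 of the 22 rose, 5 fell and 9 did not pass (all genes 23.6% up and 19.3% down). The sum of the 22 went from 3519 to 3557 CPM at day 4 to 3701 to 3705 at day 6. Their most abundant members were Parp1, a DNA repair enzyme, from 738 ± 16.3 to 281 ± 1.93 CPM, Smarcc1, a BAF remodeller subunit, from 488 ± 11.05 to 364 ± 11.6, and Ctnnb1 (beta-catenin), from 452 ± 15.2 to 519 ± 10.2.

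Regulators of other lineages, several of which the core factors are known to repress in ES cells, mostly went up. Of 17 tested, 13 rose and 4 fell at day 6 (median log2 3.10), beside 39.4% up and 37.5% down of all genes. Whether the falls of the core factors had a part in this was not tested. Some of these regulators, such as Gata6 and Pax6, are counted again among the markers of extraembryonic endoderm or neural progenitors below. The 4 that fell, again named after their values were seen, were the mesoderm and trophoblast genes T (Brachyury), Eomes and Hand1 and the neural gene Sox1, with log2 changes of -4.63, -0.71, -1.99 and -1.29. Meis1, a Hox cofactor, rose from 3.49 ± 0.525 to 106 ± 2.69 CPM, and the endoderm factor gene Gata6 from 17.8 ± 1.46 to 79.1 ± 4.29. Paralogs of the 9 genes moved in both directions, with 8 of 18 tested up, 7 down and 3 not passing at day 6 (median 0.15), shares near the 39.4% up and 37.5% down of all genes. Sall1, the paralog of Sall4 that ES cells also express, was at 80.3 ± 5.71 CPM at day 0 and 71.3 ± 0.709 at day 6 (log2 -0.17 ± 0.06, adjusted p = 0.0101). Zfp148, the paralog of Zfp281, was at 53.5 ± 2.86 and 57.7 ± 1.75 CPM (log2 0.11 ± 0.06, adjusted p = 0.0800), and Sox4 rose from 58.2 ± 1.29 to 73.6 ± 1.46.

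**Figure D5:**
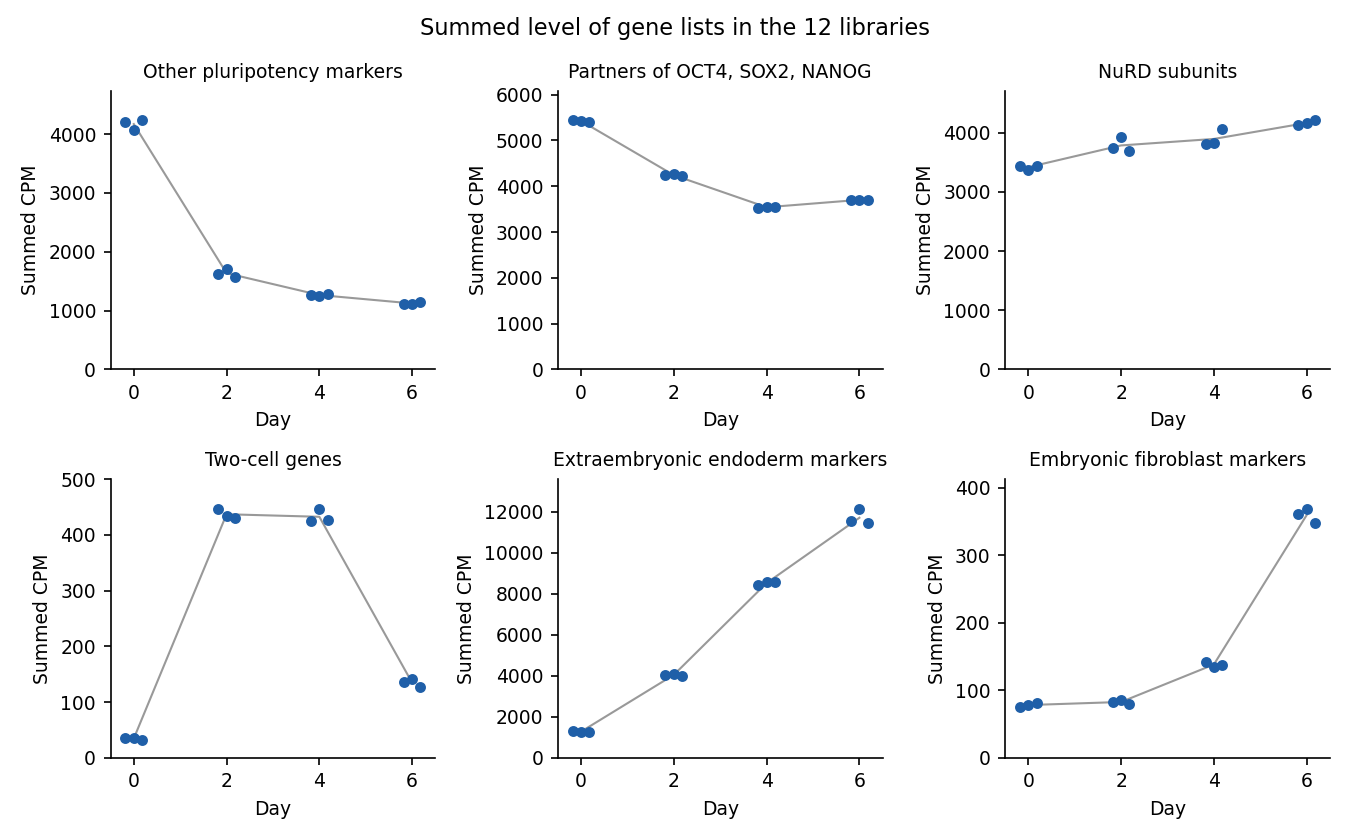
Summed CPM of the measured genes of 6 lists in each library (points) with the mean of the 3 libraries of a day (grey line), against the day. Other pluripotency markers and partners of the core factors are lower at later days than at day 0. The partners are higher at day 6 than at day 4. Two-cell genes are high at days 2 and 4, and the markers of extraembryonic endoderm and of embryonic fibroblasts are highest at day 6.

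The day 0 libraries carried the markers of ES cells. The 7 of them, Pou5f1, Sox2, Nanog, Zfp42, Esrrb, Tdgf1 and Fgf4, summed to 4298 to 4321 CPM at day 0 and 1238 to 1282 at day 2. The sum was 681 to 710.5 CPM at day 4 and 538 to 565 at day 6. From day 2 to day 6, 6 of the 7 fell and 1, Tdgf1, rose (all genes 31.2% down and 32.4% up). Pou5f1, Sox2 and Nanog are themselves among the 9 genes, and Zfp42, Esrrb, Tdgf1 and Fgf4 are among the other pluripotency markers above. This sum therefore restates values already given. Markers of some other cell types moved the opposite way. All 15 markers of extraembryonic endoderm rose at day 6 against day 0 (all genes 39.4% up and 37.5% down). Their sum went from 1260.3 to 1297 CPM at day 0 to 11433 to 12136 at day 6. It was led by the collagen genes Col4a1 and Col4a2, from 465 ± 13.9 to 5365 ± 243 and from 257 ± 2.39 to 3058 ± 118. The laminin gene Lamb1 rose from 239 ± 2.53 to 1328 ± 4.802 CPM. Of 13 tested fibroblast markers, 11 rose and 2, Thy1 and Col6a1, fell at day 6 against day 0, beside the same shares of all genes. At day 2 against day 0, 5 rose, 4 fell and 4 did not pass (all genes 34.9% up and 33.2% down). The 15 measured had a sum of 76.1 to 80.6 CPM at day 0 and 348 to 369 at day 6, with Lum at 0 counts at day 0, Dcn at 0 at day 2 and S100a4 at 0 at day 6. The 3 most abundant went up, Col3a1 from 0.624 ± 0.168 to 79.5 ± 5.98 CPM, Acta2 from 0.0799 ± 0.0695 to 63.2 ± 5.47 and Fbn1 from 16.3 ± 1.02 to 54.5 ± 1.46. The part of feeders or of any other cell type in the falls of the 9 genes was not tested.

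Markers of germ cells and of neural progenitors, cell types that keep some of the 9 genes on, moved in both directions, the neural ones mostly up. Whether such cells were present was not tested. The 12 germ cell markers summed to 472 to 491 CPM at day 0, 3326 to 3431 at day 2 and 863 to 919 at day 6, with Stra8, a gene of meiotic entry, alone at 2992 ± 47.9 CPM at day 2. Of 11 tested, 6 rose and 3 fell at day 6 against day 0 (median log2 0.69, all genes 39.4% up and 37.5% down). Among them were Dazl, up (39.1 ± 1.46 to 169.6 ± 7.57 CPM), and Kit, down (109.6 ± 1.22 to 33.4 ± 2.70). Of 11 tested neural markers, 9 rose and 2 fell in the same comparison (median log2 3.07), beside the same shares of all genes. Their list had a sum of 82.1 to 88.0 CPM at day 0 and 146 to 155 at day 6, and Hes5 and Neurog2 were at 0 counts at day 0. Nes rose from 20.04 ± 2.15 to 63.5 ± 4.23 CPM and Pax6 from 1.81 ± 0.935 to 25.3 ± 2.49, while Tubb3 fell from 45.9 ± 1.98 to 13.7 ± 0.521. Of all counts in a library, mitochondrially encoded genes held 1.38% to 2.54%. The locus Gm42418, which lies over ribosomal RNA sequence, held 0.322% to 0.351% at day 2 and 1.41% to 2.92% at the other days. With both left out, no call for any of the 9 genes changed.

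Among 10653 other genes with a mean of at least 5 CPM, those nearest in pattern to each of the 9 were found by the root-mean-square difference of log2 CPM over the 12 libraries, each gene centred on its own mean. The libraries of a day are close to each other, so these distances rest largely on 4 day means. The nearest to Pou5f1 were Usp44, a deubiquitinase gene (difference 0.120, from 53.1 ± 2.66 to 9.70 ± 0.315 CPM), and Nfe2l3 (0.120), and for Sox2 they were Ppp2r2c (0.148) and Zfp42 (0.190). Nodal, which encodes a ligand of the epiblast (0.256), was nearest to Nanog, at 32.1 ± 0.976 CPM at day 0 and 1.18 ± 0.178 at day 6. For Utf1 they were Stmn2 (0.194) and Nmnat2 (0.236), both known from neurons. Sall4 had Smg5 (0.0583) and Morc3 (0.0596), Zfp281 had Ybx1 (0.0557) and C2cd5 (0.0558), and Dppa5a had Adgre5 (0.0965) and Ror2 (0.0972). Dppa2 had Csrnp3 (0.158) and Dock3 (0.169) and Dppa4 had Trib3 (0.212) and Col13a1 (0.220), all 4 with their highest mean at day 2. Within the 9, the closest pairs were Pou5f1 with Dppa5a (0.155), Sall4 with Zfp281 (0.242) and Dppa2 with Dppa4 (0.401). Pou5f1 with Sox2 (0.405) and Sall4 with Dppa2 (0.416) came close behind the last of these.

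The nearest protein-coding genes on either side of the 9, with at least 200 counts in all, were looked up after the data had been seen. Of 16 such neighbours outside the 9 genes, 10 fell, 1 rose and 5 did not pass at day 6 against day 0. Of all genes, 37.5% fell and 39.4% rose there. Some of the 16 lie far off, and the 1 that rose, Nectin3 (log2 0.72 ± 0.11), is 1785208 bases from Dppa4. Dppa3 and Nr5a2, 2 of the neighbours, are also among the other pluripotency markers above. Those described here were picked after their values were seen. Next to Pou5f1, at 1962 bases, Tcf19 went from 27.2 ± 1.75 CPM down to 11.1 ± 0.852 (log2 -1.31 ± 0.10, adjusted p = 1.74e-14), and Kndc1, 2252 bases from Utf1, from 5.88 ± 0.300 to 0.460 ± 0.125 CPM (log2 -3.62 ± 0.28, adjusted p = 1.65e-14). Ooep, an oocyte gene 7932 bases from Dppa5a, fell from 52.1 ± 5.30 to 6.68 ± 1.06 CPM (log2 -2.96 ± 0.11, adjusted p = 1.85e-23), beside log2 -2.11 ± 0.05 for Dppa5a. Morc1, a germline gene 111514 bases past Dppa2, fell at every day, by 0.66, 1.51 and 2.24 on the log2 scale at days 2, 4 and 6 against day 0, with no rise at day 2 like that of Dppa2. On both sides of Nanog the pattern was another. Slc2a3, a glucose transporter gene 13176 bases away, was at 476 ± 6.76 CPM at day 0 and 402 ± 13.2 at day 6 (log2 -0.24 ± 0.04, adjusted p = 2.36e-06). Dppa3 (STELLA), 77217 bases away on the other side, fell from 16.2 ± 0.361 to 3.36 ± 0.343 CPM at day 2 and was at 14.7 ± 0.573 at day 6 (log2 -0.13 ± 0.10, adjusted p = 0.228).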

How the data were processed

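Raw counts per gene, deposited by the authors for 12 libraries of polyadenylated RNA and not normalized, were read as whole numbers. The submitters' processing notes list 4 tools (HISAT2 2.1.0, featureCounts 2.0.1, FastQC 0.11.7 and DESeq2) and mm10 as the build, without saying which did what. Strand setting, handling of multimapping reads and annotation release: not given in the sources used here. Per the labels' protocols, a SMARTER mRNA-Seq kit was used on RNA from a MiniBEST extraction kit.

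Of the gene IDs, 55154 matched GENCODE M21, which gave coordinates and exon lengths. In R 4.3.3, genes were filtered by day (filterByExpr), scaled by TMM and fitted with edgeR 4.0.16 (robust quasi-likelihood, 1 coefficient per day, 12 libraries). The 6 comparisons between days were tested two-sided, with Benjamini-Hochberg adjustment over all genes. An SE is the log2 change divided by the square root of its F statistic. Changes relative to Pou5f1, whose own noise all genes then share, were fitted in limma 3.58.1 on log2 CPM (prior count 2). Libraries of 1 day differed by a chi-square per degree of freedom of 1.51 to 3.80, where counting error alone gives 1. The fits were tested on simulated counts. Members, lists and tests were chosen with earlier results of these data known. Named genes were the 9, the 3 most abundant tested genes of each list over all libraries, the 2 nearest in pattern to each of the 9, and copies or overlapping genes. A few genes that this rule or a marker list would name are not reported here. Alternatives were other scalings, filters, tests (DESeq2 1.42.0, limma-voom), thresholds, a replicate block and each library left out. Figures were drawn in matplotlib 3.10.9.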

Additional observations from a re-analysis of the deposited data

How the results depend on the processing

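The number of the 9 genes changed was 8 at day 2 and stayed at 7 or 8 under every alternative run. At days 4 and 6 against day 0 it stayed at 8 and 9, from day 2 to day 4 and to day 6 at 9, and from day 4 to day 6 at 7. The numbers differing from Pou5f1 were 8 at days 2 and 6 throughout and 7 or 8 at day 4, the 7 coming without replicate 3 of day 4, where Dppa5a was lost.

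The value of Dppa4 at day 2 against day 0 was not called in any setting and changed sign in 5 of them. It was a log2 change of 0.12 with scaling by library size alone, 0.039 with no filter, and 0.0093, 0.0088 and 0.052 without replicate 1 of day 0, replicate 3 of day 0 and replicate 3 of day 2. The cause was not tested. Over all libraries left out in turn it ran from -0.056 to 0.052. Dppa2 at day 4 against day 0, also not called, was 0.10 with library size alone, 0.021 with no filter and 0.052 without replicate 1 of day 4 (-0.076 to 0.052 over libraries left out). Scaling by library size alone moved the median of all genes by 0.132, 0.128 and 0.104 log2 units at days 2, 4 and 6 against day 0, and the split of all genes changed at day 2 from 5743 up and 5473 down to 7053 and 4412. Leaving out Gm42418 and the mitochondrially encoded genes was chosen after seeing the data.

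Whether the replicate numbers in the titles pair the libraries is not given. Deviations from the day means correlated at -0.04 to 0.03 between libraries of the same number and at -0.03 to 0.03 between those of different numbers. These values gave no sign of a pairing but cannot exclude a shared culture or batch. With a replicate block, 8, 8 and 9 of the 9 genes changed at days 2, 4 and 6 against day 0 and 11195, 12075 and 12630 of all genes, and no call of the 9 was altered. Depth limits Utf1 from day 4 on.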
